A study of Aspergillus niger with 16 samples.

Results

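*lacB* (locus tag NRRL3_02479) and *lacC* (NRRL3_11738) are genes for β-galactosidases of the filamentous fungus *Aspergillus niger*. Both were picked out by locus tag, by a rule that uses no measured value. Earlier results of these data were, however, known when the genes were chosen. They are 2 of the 11580 genes listed in any of 16 RNA sequencing libraries. The gene names were recalled from published knowledge, because the deposited tables pair the tags with no name. The question behind the libraries, as the series states it, is which transcripts need GaaR, the transcriptional activator that responds to D-galacturonic acid (GA).

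The deletion strain, CBS 141258, lacks *gaaR* (ΔgaaR), and the strain it was set against is CBS 141257 (reference). Each was pre-grown for 16 h in complete medium with 2% D-fructose, washed, and shifted to a pH 6 minimal medium, shaken at 250 rpm and 30 °C. Its carbon source was 25 mM GA, sampled at 2 h, or pectin from sugar beet (SBP) at 1%, sampled at 2, 8 and 24 h. This gave 8 groups of 2 libraries, each made from total RNA of mycelium. A single deletion strain was used, and the labels do not say whether the replicates were separate cultures, so every p-value rests on the scatter among these libraries, part or all of which could be technical. Whether the mycelium carried spore-forming structures was not examined here, since no marker gene of that kind had a name.

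Pectin is built of a backbone rich in galacturonic acid and of branched regions that carry side chains of arabinose and galactose. β-Galactosidases cut galactose from the ends of such chains, while polygalacturonases and lyases cut the backbone and arabinanases and arabinofuranosidases remove arabinose. In *A. niger* GaaR activates genes for the uptake and breakdown of GA and for many enzymes that release it from pectin, and GaaX is the repressor that counteracts it. Sugar beet pectin is known for being rich in these side chains.

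Expected counts summed to between 3203011 and 4574019 reads per library. With GA as carbon source the 2 ΔgaaR libraries held 30 and 1 reads of the deleted gene. With SBP they held 0 and 12 reads of it after 2 h, 24 in each after 8 h, and 0 in each after 24 h. In the reference strain it had from 176 to 1984 reads. The strain labels were thus matched in direction, but 5 of the 8 ΔgaaR libraries held some reads of the deleted gene. Their origin was not tested, and values with and without those libraries are given beside the results on *lacB* and *lacC* on GA and on SBP at 2 h.

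Both β-galactosidase genes were transcribed in every library, with 32 to 6384 reads. All of their 32 read numbers were whole, as reads assigned to 1 gene alone give, while 548 of the 168277 values listed for all genes were not. Levels are in FPKM, fragments scaled by gene length and by library size, which allows the genes to be set beside each other. The coding lengths are close, 3051 bases for *lacB* and 2988 bases for *lacC*.

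*lacB* had its highest level in the reference strain early on pectin. On GA at 2 h it had 36.8 and 45.7 FPKM in the ΔgaaR libraries, against 127 and 148 FPKM in the reference libraries. On SBP at 2 h it had 52.5 and 45.2 FPKM without *gaaR* and 472 and 503 FPKM with it. The reference level there was thus the top of its range, above 96.9% of the genes listed in 1 library and 97.1% in the other. On SBP at 8 h it had 24.1 and 24.5 FPKM in ΔgaaR and 124 and 107 FPKM in the reference strain. On SBP at 24 h it had 6.77 and 9.84 FPKM in ΔgaaR and 16.6 and 11.1 FPKM in the reference strain, the closest approach of the strains. In all 4 conditions both ΔgaaR libraries lay below both reference libraries. With 2 libraries against 2 this was so for 30.1% of all genes tested on GA, and on SBP for 22.8% at 2 h, 37.4% at 8 h and 25.3% at 24 h.

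In the reference strain *lacC* was lower on GA than on pectin, and high at 2 and 8 h on pectin. In ΔgaaR it was low throughout. On GA at 2 h it had 11.8 and 6.34 FPKM in ΔgaaR, against 26.2 and 31.6 FPKM in the reference strain. Those reference libraries had it above 62.5% and 67.0% of the genes listed. On SBP at 2 h it had 10.3 and 13.8 FPKM in ΔgaaR and 320 and 275 FPKM in the reference strain. These groups were far apart, with the reference libraries above 95.4% and 94.5% of the genes listed and the ΔgaaR libraries above 43.4% and 45.2%. On SBP at 8 h it had 9.40 and 7.72 FPKM in ΔgaaR and 255 and 374 FPKM in the reference strain. On SBP at 24 h it had 2.49 and 3.12 FPKM in ΔgaaR, from 32 and 40 reads (95% Poisson intervals 1.70 to 3.52 and 2.23 to 4.25 FPKM, for counting error only), and 91.8 and 136 FPKM in the reference strain. Again no ΔgaaR library reached the lower reference library of its condition, beside the same shares of all genes.

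**Figure D1:**
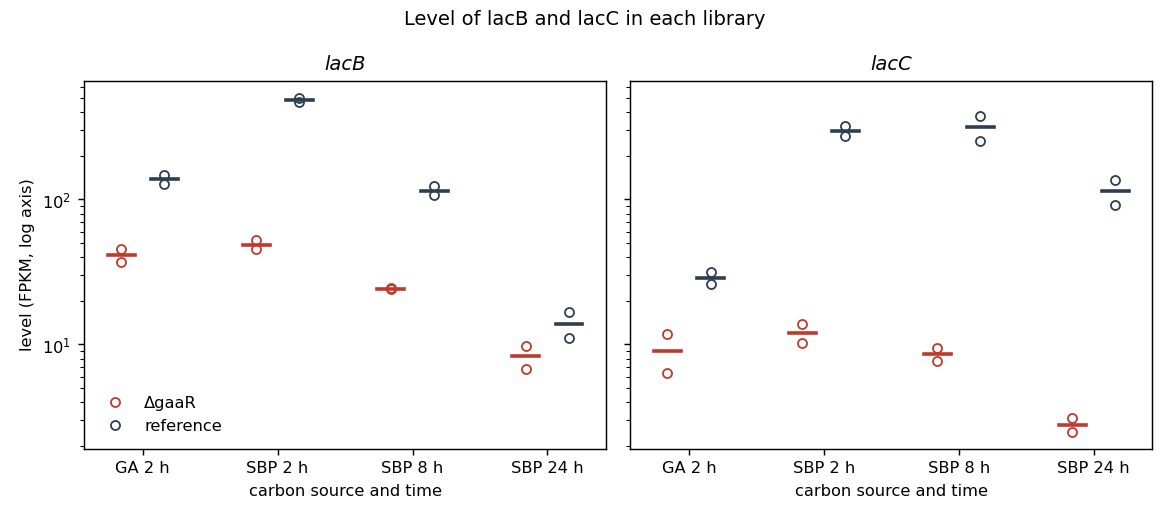
Level of *lacB* (left) and *lacC* (right) in FPKM on a log axis, in ΔgaaR (red) and reference (dark) libraries on GA for 2 h and SBP for 2, 8 and 24 h. Circles are single libraries and bars the mean of 2. The ΔgaaR circles lie below the reference circles in all 8 pairs of groups, as they do for 22.8% to 37.4% of all genes tested in a single condition, and are nearest to them for *lacB* at 24 h (6.77 and 9.84 against 16.6 and 11.1 FPKM).

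Ranked by mean level, the 8 groups fell in a different order for each gene. For *lacB* the order from the top was reference on SBP at 2 h (487 ± 22.0 FPKM, SD, n = 2, as for all means here), reference on GA (138 ± 14.8), reference on SBP at 8 h (115 ± 12.1), ΔgaaR on SBP at 2 h (48.9 ± 5.16), ΔgaaR on GA (41.2 ± 6.33), ΔgaaR on SBP at 8 h (24.3 ± 0.24), reference on SBP at 24 h (13.8 ± 3.94) and ΔgaaR on SBP at 24 h (8.31 ± 2.17). The 24 h reference group therefore stood below 3 ΔgaaR groups. The libraries of neighbouring groups overlapped only between ΔgaaR on SBP at 2 h and ΔgaaR on GA.

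For *lacC* all 4 reference groups stood above all 4 ΔgaaR groups. The order was reference on SBP at 8 h (314 ± 84.5 FPKM), at 2 h (298 ± 31.9) and at 24 h (114 ± 31.3), reference on GA (28.9 ± 3.81), and then ΔgaaR on SBP at 2 h (12.0 ± 2.50), on GA (9.08 ± 3.87), on SBP at 8 h (8.56 ± 1.19), and last ΔgaaR on SBP at 24 h (2.81 ± 0.45). The libraries of the first 2 groups overlapped, as did those of ΔgaaR on SBP at 2 h with ΔgaaR on GA, and of ΔgaaR on GA with ΔgaaR on SBP at 8 h.

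On GA both genes were lower in ΔgaaR, with changes that were close in size over the 2 ΔgaaR libraries together but not in each. In mean FPKM, *lacB* kept 30.0% of its reference level and *lacC* 31.4%. Such percentages, here and below, are ratios of mean FPKM. The log2 fold changes come from counts with edgeR's own library scaling (TMM), so these measures can differ. The log2 fold change of ΔgaaR over reference was -1.82 (standard error, SE, 0.28, adjusted p = 4.6e-05) for *lacB* and -1.81 (SE 0.29, adjusted p = 6.9e-05) for *lacC*, in edgeR's quasi-likelihood test over 10003 genes. Calls here and below are made below an adjusted p of 0.05. Both genes were called lower, as were 23.5% of all genes tested. That ΔgaaR library with 30 *gaaR* reads had the higher *lacC* level of its pair and the lower *lacB* level. Without it the changes were -1.54 for *lacB* and -2.14 for *lacC*. Without the other, which held 1 *gaaR* read, they were -2.15 for *lacB* and -1.54 for *lacC*. All 4 of these values were called. The libraries are bulk RNA, so fewer cells that transcribe a gene and less of its RNA per cell cannot be told apart in any of these comparisons.

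On SBP at 2 h the loss was greater than on GA for both genes. *lacB* was at 10.04% of its reference level and *lacC* at 4.05%. The log2 fold changes were -3.31 (SE 0.29, adjusted p = 2e-06) and -4.65 (SE 0.31, adjusted p = 1.3e-07), and their 95% intervals (-3.92 to -2.69 and -5.30 to -3.99) did not overlap. Both were called lower, against 7.21% of all genes tested, and from the lower end of the 10003 log2 fold changes *lacC* ranked 37th and *lacB* 90th. Without the ΔgaaR library with 12 *gaaR* reads the changes were -3.07 for *lacB* and -4.71 for *lacC*.

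On SBP at 8 h *lacC* had 2.72% of its reference level left in ΔgaaR, while *lacB* had 21.1%. The log2 fold changes were -5.20 (SE 0.32, adjusted p = 8.2e-09) for *lacC* and -2.24 (SE 0.28, adjusted p = 1e-05) for *lacB*, both called lower beside 21.4% of all genes tested. *lacC* ranked 69th from the lower end and *lacB* 587th. Both ΔgaaR libraries of this condition held 24 *gaaR* reads, so no value without both could be given. With 1 of them left out *lacB* had -2.24 or -2.23, and *lacC* -5.36 or -5.04.

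On SBP at 24 h the genes parted further. *lacC* had 2.46% of its reference level left (log2 fold change -5.53, SE 0.34, adjusted p = 1.2e-08), the largest change of the 8 by size. *lacB* had 60.0% left (log2 fold change -0.93, SE 0.29, adjusted p = 0.024), the smallest. In the edgeR fit the levels in ΔgaaR were 0.526 times the reference for *lacB* and 0.0216 times for *lacC*, below these FPKM shares. Both were called lower, as were 15.8% of all genes tested. The call for *lacB* did not hold without reference replicate 1 (-0.60, adjusted p = 0.25), without ΔgaaR replicate 1 (-0.64, adjusted p = 0.25) or in a fit of only these 4 libraries (-0.87, adjusted p = 0.077). No *gaaR* read was found in the ΔgaaR libraries at 24 h.

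**Figure D2:**
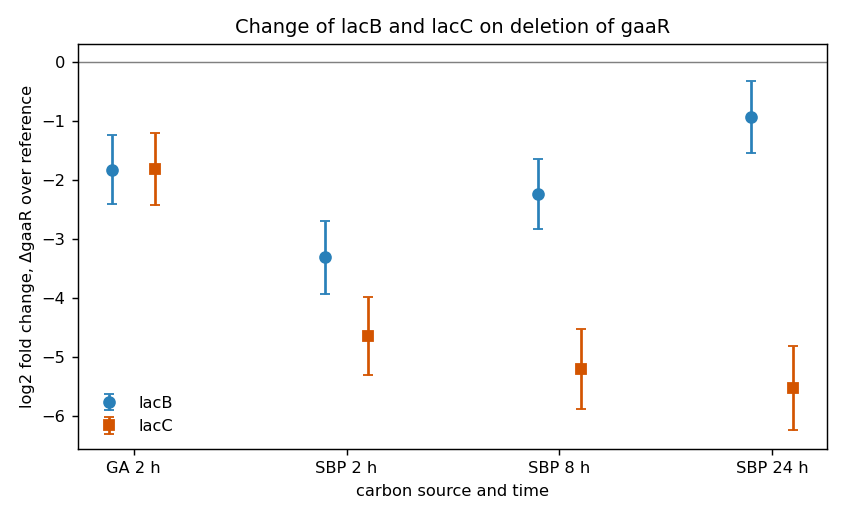
Log2 fold change of ΔgaaR over reference for *lacB* (circles) and *lacC* (squares) in each condition, with 95% intervals from the edgeR fit of 16 libraries. On GA the values are -1.82 and -1.81, and at 24 h on SBP they are -0.93 for *lacB* and -5.53 for *lacC*.

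Whether the deletion effect itself differed between conditions was tested as a contrast of log2 fold changes. From GA to SBP at 2 h the effect was larger on SBP for both genes. The difference was -1.49 (SE 0.38, adjusted p = 0.0056) for *lacB* and -2.83 (SE 0.40, adjusted p = 4.4e-05) for *lacC*, both called in the lower direction, as were 19.4% of all genes tested. From 2 to 8 h on SBP the effect on *lacB* shrank by 1.07 (SE 0.38, adjusted p = 0.047), a call made for 13.4% of genes in that direction. That call was lost without 7 of the 8 libraries in turn (all but ΔgaaR replicate 1 of 2 h, adjusted p up to 0.14) and with the replicate number as a block (1.06, adjusted p = 0.053). From 8 to 24 h it shrank again, by 1.31 (SE 0.40, adjusted p = 0.018, beside 15.4% of genes), lost without 4 of the 8 libraries in turn (adjusted p from 0.050 to 0.11). They were reference replicate 1 and ΔgaaR replicate 1 at 8 h, and reference replicate 2 and ΔgaaR replicate 2 at 24 h. For *lacC* neither step passed, with -0.55 (95% interval -1.38 to 0.27, adjusted p = 0.32) from 2 to 8 h and -0.33 (-1.20 to 0.53, adjusted p = 0.57) from 8 to 24 h. These contrasts share libraries, the 2 h and 8 h groups on SBP each entering a pair of them.

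Within the reference strain pectin raised both genes over GA at 2 h. *lacB* averaged 487 ± 22.0 FPKM on SBP and 138 ± 14.8 FPKM on GA (log2 fold change 1.77, SE 0.27, adjusted p = 5.8e-05). *lacC* averaged 298 ± 31.9 FPKM on SBP and 28.9 ± 3.81 FPKM on GA (3.31, SE 0.29, adjusted p = 2e-07). Both were called higher, beside 27.3% of all genes tested.

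Without *gaaR* the same step passed for 0 of the 2 genes in edgeR's test, also without adjustment, while 31.0% of all genes tested were called in one direction or the other. *lacB* averaged 48.9 ± 5.16 FPKM on SBP and 41.2 ± 6.33 FPKM on GA, a log2 fold change of 0.28 (95% interval -0.29 to 0.86, adjusted p = 0.46 in edgeR and 0.53 in DESeq2). *lacC* averaged 12.0 ± 2.50 FPKM on SBP and 9.08 ± 3.87 FPKM on GA, a log2 fold change of 0.48 (95% interval -0.14 to 1.09, adjusted p = 0.23 in edgeR and 0.29 in DESeq2). For both genes the libraries of these groups overlapped. The difference of this step between strains is the contrast given above, -1.49 for *lacB* and -2.83 for *lacC*.

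Between 2 and 8 h on SBP the genes differed in course in the reference strain. *lacB* fell to 115 ± 12.1 FPKM at 8 h, against 487 ± 22.0 FPKM at 2 h (-2.21, SE 0.28, adjusted p = 1.3e-05), a call in the direction of 19.5% of genes. *lacC* averaged 314 ± 84.5 FPKM at 8 h and 298 ± 31.9 FPKM at 2 h, and its log2 fold change of -0.04 (95% interval -0.60 to 0.51, adjusted p = 0.91) did not pass. The sign of that small value turned with total count scaling (0.085) and with either 8 h or 2 h reference replicate 1 left out (0.24 and 0.07). In ΔgaaR *lacB* fell to 24.3 ± 0.24 FPKM at 8 h, against 48.9 ± 5.16 FPKM at 2 h (-1.14, SE 0.28, adjusted p = 0.0051, beside 15.3% of genes). This call was lost without ΔgaaR replicate 1 of 2 h (-0.87, adjusted p = 0.056) or ΔgaaR replicate 2 of 8 h (-1.06, adjusted p = 0.053). *lacC* in ΔgaaR averaged 8.56 ± 1.19 FPKM at 8 h and 12.0 ± 2.50 FPKM at 2 h, with a log2 fold change of -0.60 (-1.21 to 0.02, adjusted p = 0.13).

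Between 8 and 24 h both genes fell in both strains. In ΔgaaR *lacB* fell to 8.31 ± 2.17 FPKM at 24 h, against 24.3 ± 0.24 FPKM at 8 h (-1.81, SE 0.29, adjusted p = 0.00019). *lacC* in ΔgaaR fell to 2.81 ± 0.45 FPKM, against 8.56 ± 1.19 FPKM (-1.88, SE 0.32, adjusted p = 0.00034). Both were called lower there beside 15.0% of genes. In the reference strain *lacB* fell to 13.8 ± 3.94 FPKM at 24 h, against 115 ± 12.1 FPKM at 8 h (-3.12, SE 0.29, adjusted p = 4.2e-07). *lacC* fell to 114 ± 31.3 FPKM, against 314 ± 84.5 FPKM (-1.54, SE 0.27, adjusted p = 0.00022), both called lower beside 21.4% of genes. For *lacC* the contrast of these falls between strains was the -0.33 given above, and for *lacB* it was 1.31.

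**Figure D3:**
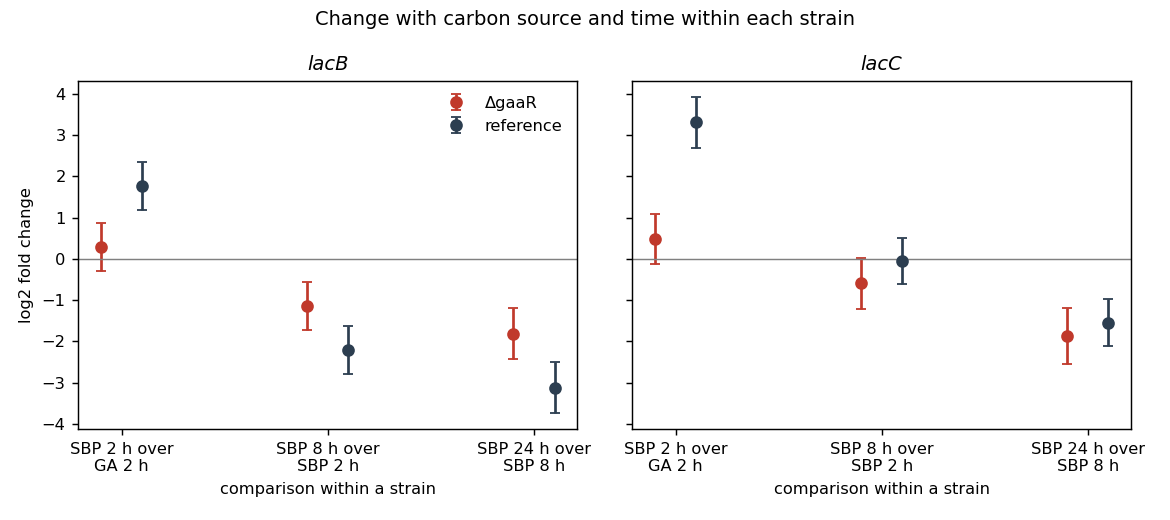
Log2 fold change of *lacB* (left) and *lacC* (right) from one condition to the next within ΔgaaR (red) and the reference strain (dark), with 95% intervals from the edgeR fit. The step from GA to SBP at 2 h is 3.31 for *lacC* in the reference strain and 0.48 in ΔgaaR, and the step from 8 to 24 h is below 0 in both strains for both genes.

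The balance of the genes within a library was then compared. In the 8 ΔgaaR libraries the ratio of *lacC* to *lacB* in FPKM stayed between 0.14 and 0.39, so that *lacB* was the more abundant transcript in each. In the reference strain the ratio was 0.21 in both GA libraries. In the pectin libraries of that strain it was 0.68 and 0.55 after 2 h, 2.06 and 3.51 after 8 h, and 5.52 and 12.3 after 24 h. *lacB* was thus the more abundant transcript of the reference strain on GA and at 2 h on SBP, and *lacC* at 8 and 24 h. As a share of their summed FPKM, *lacC* made up 25.5 ± 1.99% at 24 h in ΔgaaR and 88.6 ± 5.53% in the reference strain.

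Averaged over the 4 conditions, the log2 ratio was lower by 2.21 in ΔgaaR than in the reference strain (exact permutation test of strain labels within conditions, two-sided, p = 0.0062 over 1296 rearrangements). On GA the mean log2 ratio was -2.24 in ΔgaaR and -2.25 in the reference strain, with overlapping libraries. On SBP the libraries of the strains did not overlap at any time. The mean log2 ratios were -2.03 in ΔgaaR and -0.71 in the reference strain at 2 h, -1.51 in ΔgaaR and 1.43 in the reference strain at 8 h, and -1.55 in ΔgaaR and 3.04 in the reference strain at 24 h. With 2 libraries against 2, no single condition can give a p below 0.33, so none was tested alone.

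**Figure D4:**
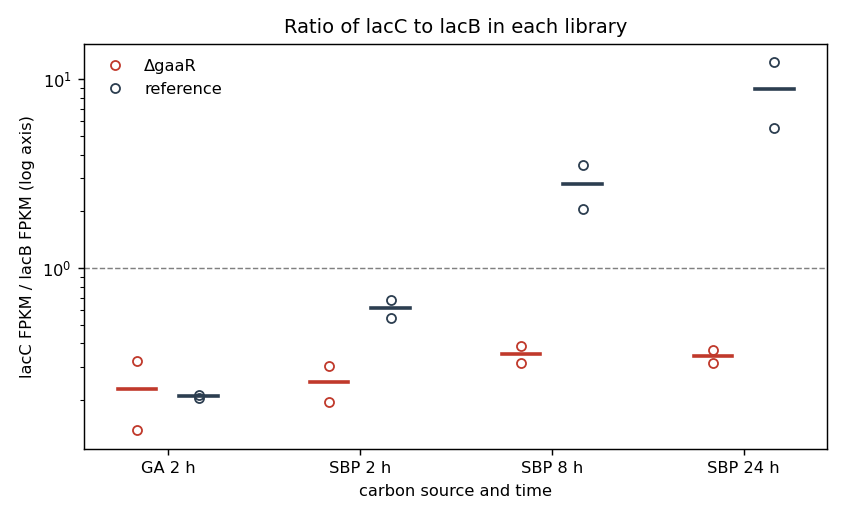
Ratio of *lacC* to *lacB* FPKM in each library on a log axis, in ΔgaaR (red) and reference (dark) libraries. Circles are libraries, bars the mean of 2, and the dashed line marks equal levels. The ΔgaaR circles stay between 0.14 and 0.39, and the reference circles reach 5.52 and 12.3 at 24 h on SBP.

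The other pectin side chain genes with a name were *abfC* and *abnC*. *abfC*, for an arabinofuranosidase, averaged 67.2 ± 37.5 FPKM in ΔgaaR and 202 ± 12.2 FPKM in the reference strain on GA, and 528 ± 21.9 FPKM in ΔgaaR and 2406 ± 424 FPKM in the reference strain on SBP at 2 h. It was called lower on GA (log2 fold change -1.74, SE 0.27, adjusted p = 5.5e-05, beside 23.5% of all genes). On SBP at 2 h it was called lower too (-2.19, SE 0.27, adjusted p = 5.8e-05, beside 7.21%). At 24 h it was called lower as well (-1.59, SE 0.27, adjusted p = 3e-04, beside 15.8%). It had 37.0 ± 1.78 FPKM in ΔgaaR and 97.3 ± 14.4 FPKM in the reference strain there. At 8 h on SBP, where *lacB* and *lacC* were called lower in ΔgaaR, it had 484 ± 24.5 FPKM in ΔgaaR and 442 ± 27.5 FPKM in the reference strain (log2 fold change 0.14, SE 0.26, adjusted p = 0.70). In ΔgaaR it was called higher on SBP at 2 h than on GA (3.07, SE 0.28, adjusted p = 1.5e-06). At this step 31.0% of all genes were called in either direction, and neither β-galactosidase gene passed. The differences between genes in these steps were not tested. *abnC*, for an endoarabinanase, was called higher in ΔgaaR on GA (1986 ± 984 FPKM in ΔgaaR and 103 ± 11.5 FPKM in the reference strain, log2 fold change 4.22, SE 0.44, adjusted p = 9e-07, beside 26.2% of genes) and at 8 h on pectin (3.55, SE 0.43, adjusted p = 6e-06, beside 22.4%). It did not pass on SBP at 2 h (1.13, SE 0.39, adjusted p = 0.061) or at 24 h (-0.14, SE 0.38, adjusted p = 0.83). In the reference strain it was higher at 24 h (2279 ± 547 FPKM) than at 8 h (86.7 ± 20.1 FPKM; 4.64, SE 0.45, adjusted p = 5.6e-07, a direction called for 23.5% of genes). This was the step at which *lacB*, *lacC* and *abfC* fell.

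The 5 genes of GA uptake and breakdown (*gaaA*, *gaaB*, *gaaC*, *gaaD* and the transporter gene *gatA*) were all called lower in ΔgaaR on GA, with a median log2 fold change of -5.20, beside the 23.5% of all genes called lower, where *lacB* had -1.82 and *lacC* -1.81. On SBP at 24 h 4 of the 5 were called lower, beside 15.8% of all genes, with a median of -3.35, and *gaaD* was not (-0.80, SE 0.33, adjusted p = 0.089). There *lacC* had -5.53 and *lacB* -0.93. The median over all genes tested was 0.09 on GA and -0.02 at 24 h. In the reference strain the step from 2 to 8 h on SBP was called lower for 1 of the 5, *gaaA* (-0.87, SE 0.29, adjusted p = 0.026), beside 19.5% of all genes. From 8 to 24 h it was called lower for 5 of 5, beside 21.4% of all genes. The medians of the 5 were -0.41 and -3.77 at these steps, and those of all genes -0.02 and 0.05. *lacB* fell at both steps and *lacC* at the second. Of the 9 named enzymes of homogalacturonan, a part of the pectin backbone, 5 were called higher and 0 lower from 2 to 8 h. This was in the reference strain in edgeR's test, where 21.0% of all genes were called higher. From 8 to 24 h 8 of them were called lower and 0 higher, where 21.4% of all genes were called lower. Their median log2 fold changes were 1.54 and -3.19. Of the 3 named enzymes of other backbone parts, rhamnogalacturonan and xylogalacturonan, 1 was called higher and 0 lower from 2 to 8 h. From 8 to 24 h 1 of the 3 was called lower and 1 higher, where 23.5% of all genes were called higher. The medians of the 3 were 1.28 and -0.80. These lists were drawn up with knowledge of this regulator and are not independent evidence of direction.

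Likeness of pattern was measured as Pearson's r of log2 CPM (count over library size) over the 16 libraries, among the 10003 genes tested. This is a description, because the libraries of a strain share the presence or absence of *gaaR* and those of a condition share the medium. For *lacC* the 10 most alike genes included *gaaR* itself (r = 0.92, rank 6) and the repressor gene *gaaX* (r = 0.91, rank 8), and the first was NRRL3_00660 (r = 0.94), which has no name here. For *lacB* none of the 10 had a name. The first was NRRL3_03526 (r = 0.93), and the first gene with a name was *gaaD* at rank 13 (r = 0.89). Between *lacB* and *lacC* r was 0.66, which put *lacC* at rank 650 of 10002 for *lacB* and *lacB* at rank 235 for *lacC*.

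The levels of *gaaR* and *lacC* in the reference strain differed in course all the same. *gaaR* averaged 26.2 ± 2.96 FPKM on GA, 224 ± 12.9 FPKM on SBP at 2 h, 60.5 ± 3.38 FPKM at 8 h and 88.7 ± 8.76 FPKM at 24 h. *lacC* had its means of 298 and 314 FPKM at 2 and 8 h, the times of the highest and the second lowest mean of *gaaR*. *lacB*, like *gaaR*, had a lower mean at 8 h than at 2 h, but its mean at 24 h was the lowest of its 4.

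Genes with the locus tags just before and after each member were described as well, with tags standing in for order along the chromosome. Of 8 tests on the 2 neighbours of *lacC*, 5 were called lower in ΔgaaR and 1 higher, where 7.21% to 23.5% of all genes were called lower. The largest loss was -1.92 (SE 0.34, adjusted p = 0.0014) for the gene after it on SBP at 2 h, where *lacC* had -4.65. Of 8 tests on the 2 neighbours of *lacB*, 4 were called lower and 1 higher, beside the same shares of all genes called lower. For each member the 1 higher call was at 24 h, where 1262 of the 10003 genes tested were called higher. The gene after *lacB* changed by -2.26 (SE 0.22, adjusted p = 8.6e-07) at 8 h, close to the -2.24 of *lacB*, but by 1.38 (SE 0.22, adjusted p = 0.00015) at 24 h, where *lacB* had -0.93. The gene before *lacB* had 16 to 56 reads in every library, against 89 to 6384 for *lacB*.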

How the data were processed

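Total RNA of mycelium was sequenced with standard Illumina libraries. For each library the authors deposited expected counts (not normalized), FPKM (scaled by gene length and library total) and lengths per gene, as columns named per the file headers. BWA, Bowtie2 and RSEM are listed in the submitters' processing notes, with neither role nor version. Lengths were multiples of 3 for 100% of genes, hence coding lengths. Unlisted genes were taken as 0.

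Expected counts were rounded and tested with edgeR 4.0.16 (its quasi-likelihood test in R 4.3.3, two-sided, with TMM, filterByExpr, 10003 genes, 16 libraries, 1 mean per group, 8 residual degrees of freedom), with Benjamini-Hochberg adjustment over all genes. The standard error is the absolute log2 fold change over the square root of F. Both members passed the filter. Alternatives used DESeq2 1.42.0, limma 3.58.1, other scaling, other filters and fewer libraries. Ratios were tested in Python 3.11.15 with an exact permutation test. The scripts were tested on simulated data.

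The members, lists and tests were chosen with earlier results of these data known. Genes named were *lacB*, *lacC*, side chain and GA genes, and, among the 10 genes most alike to each member, those with a name and the first without. The homogalacturonan list (9 genes), the list of other backbone parts (3 genes) and the gene neighbours are given as counts or single values. No sequence was used here, and a planned promoter motif search was not made.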

Additional observations from a re-analysis of the deposited data

Results flagged for a closer look

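The deletion effect on *lacB* and *lacC* differed between conditions, by a test of the difference itself in the edgeR fit (ΔgaaR over reference, later or pectin condition minus the earlier or GA one). From GA to SBP at 2 h it differed by -1.49 on the log2 scale for *lacB* and by -2.83 for *lacC*. For *lacB* it differed by 1.07 from 2 to 8 h on SBP and by 1.31 from 8 to 24 h. With each of the 8 libraries of a contrast left out in turn, the call of the 1.07 held in 1 fit of 8 and that of the 1.31 in 4 of 8, and the call of the 1.07 was also lost with the replicate number as a block (adjusted p = 0.053). No single-library check for outlying samples applied, since each group held 2 libraries.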

How the results depend on the processing

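Each of 27 results on *lacB* and *lacC* was recomputed, giving 360 values, and 337 kept their direction and side of the threshold, with 21 results doing so in every setting run. At 24 h on SBP the *lacB* deletion effect was -0.87 (adjusted p = 0.077) with only the libraries compared, and -1.26 to -0.60 with 1 library left out. The *lacB* step from 2 to 8 h in ΔgaaR was -1.38 to -0.87 with 1 library left out. The change of the *lacB* deletion effect from 2 to 8 h was 1.06 (adjusted p = 0.053) with the replicate block and 0.83 to 1.34 with 1 library left out, and from 8 to 24 h it was 0.98 to 1.64. The *lacC* step from 2 to 8 h in the reference strain turned to 0.085 with total count scaling and to 0.0576 and 0.0577 with limma on FPKM with a pseudocount of 1 and of 0.1, and was -0.38 to 0.24 with 1 library left out. The change of the *lacC* deletion effect from 8 to 24 h turned to 0.13 with limma on log2(FPKM + 1). The causes were not tested. The ratio of *lacC* to *lacB* differed by -2.36 to -2.05 in all settings, and paired by replicate number its exact p was 0.023 (replicate block).

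Replicate numbers of the strains deviated together only weakly within a condition (correlations of 0.09 on GA, 0.03, 0.06 and -0.13 on SBP at 2, 8 and 24 h), so they were not taken as pairs. Apart from the *lacB* change above, the block altered no call on either gene. Crossing the numbers, a setting chosen after the data were seen, gave 2854 calls at 24 h (2847 without a block) and 3213 for SBP against GA in ΔgaaR (3103), where the correlation was -0.43.

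Calls over all genes moved by more than 1.5 times in these cases. For the deletion on SBP at 2 h they went to 572 to 634 without reference replicate 1, reference replicate 2 or ΔgaaR replicate 1, and to 736 with only the libraries compared, against 1456. At 24 h they went to 1722 without ΔgaaR replicate 1, against 2847. For SBP against GA in ΔgaaR they went to 1413 with only the libraries compared, against 3103. In ΔgaaR they went to 1940 (2 to 8 h) and to 1835 and 1714 (8 to 24 h) without a ΔgaaR replicate 2, against 3030 and 2902. Total count scaling moved the median log2 fold change of all genes by 0.10 to 0.28 in 6 of 13 comparisons. With it, 57.5% of calls at 24 h were higher in ΔgaaR, against 44.3%, and 69.9% from 8 to 24 h in ΔgaaR, against 48.2%. With limma and a pseudocount of 1 and of 0.1 these shares were 58.4% and 56.8%, and 70.6% and 70.2%. For the 8 to 24 h difference of the deletion effect they were 56.7% and 56.5%, against 45.6%, and with only the libraries compared the share on SBP at 2 h was 37.8%, against 50.5%. Where an interval given spans 0, differences of the sizes it holds could not be told from 0 with 2 libraries per group, and the 32 and 40 reads of *lacC* at 24 h in ΔgaaR set the precision there.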
